A study of Mus musculus with 6 samples.

Results

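CREM, RFX and their partners are transcription and mRNA regulators that act when male germ cells leave meiosis and build spermatids. The 10 genes described here are Crem, Creb1, Fhl5, Rfx1, Rfx2, Rfx3, Tcfl5, Tbpl1, Nr6a1 and Ybx2. They were chosen by name, and every probe set annotated to 1 of these symbols was taken, which gave 16 of the 22626 probe sets tested and 10 of the 12393 named genes. Crem had 3 probe sets, Creb1 4, Nr6a1 2 and the other genes 1 each. A probe set is a group of short probes on the Affymetrix Mouse430A_2 array that reports the transcripts of a gene.

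The samples were 3 preparations titled spermatogonial stem cells, from which all later male germ cells descend, and 3 titled total testicular cells, with 1 array each. All mice carried the Stra8-CD4HAglo transgene, in which a truncated promoter of the germ cell gene Stra8 drives a surface protein with domains of human CD4. The stem cell samples are the cells that magnetic beads against human CD4 pulled out of the testicular suspension. Each stem cell preparation pooled 50 males. The source text of the total testicular cell samples names CD4-negative cells instead, so the titles and the source text differ on whether those samples still held the positive cells. The labels give no strain background, age or further allele, and they do not say that preparations came from separate animals, so p-values measure the spread between these arrays.

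In round spermatids CREM binds cAMP response elements and switches on genes such as those of the protamines and transition proteins, while short CREM forms that start inside the gene repress. The coactivator FHL5, also called ACT, binds CREM in mouse spermatids and lets it work without the usual phosphorylation. RFX factors bind X-box motifs and drive cilium and sperm tail genes. TBPL1 replaces or adds to TBP at germ cell promoters, NR6A1 is an orphan nuclear receptor that mostly represses, and YBX2 packs and stores spermatid mRNAs for later translation.

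Values are on the log2 scale as deposited. Array medians were 3.25 to 3.44. Background was set at 2.15, the level under which 95% of 27 probe sets for bacterial genes fell, and 79.7% to 84.1% of probe sets exceeded it on an array. The arrays correlated at 0.970 to 0.984 among the stem cell samples and at 0.992 to 0.995 among the total testicular cell samples, over probe sets. Between the groups they correlated at 0.931 to 0.984, up to the top of the range among stem cell samples. Markers of undifferentiated spermatogonia, the labelled cell type, ranged from near background to well above it and moved in both directions. On its brighter probe set Zbtb16 read 2.38, 2.33 and 2.84 in stem cells, against 3.06, 2.96 and 2.83 in total testicular cells. Its other probe set differed by 0.14. Of the measured markers of undifferentiated spermatogonia, 0 of 12 passed the test, against 1.77% of all genes. Id4 read 6.78, 7.87 and 7.69 in stem cells, against 7.95, 8.05 and 7.98 in total testicular cells, and Uchl1 read 5.66 to 6.22 in stem cells and 5.46 to 5.89 in total testicular cells. On its brighter probe set Itga6 was higher in stem cells with groups apart (difference 0.99, limma adjusted p = 0.0739, its other probe set at −0.05). So was Stra8, whose promoter drives the transgene, at 5.39 ± 0.52 in stem cells and 4.39 ± 0.17 in total testicular cells (SD, n = 3 each, difference 1.01, limma adjusted p = 0.0832). Spermatid transcripts were high in both groups, with Prm1, a protamine gene, at 12.99 to 13.19 in stem cells and 13.01 to 13.20 in total testicular cells. Each Prm1 reading lay at or near the highest value of its array, where a difference could be missed. All 13 measured spermatid markers had negative differences, beside 57% of all genes. Their median was −0.19, and 0 passed the test. Macrophage markers moved most, and 11 of 14 rose after adjustment, against 1.63% of all genes. Csf1r read 9.22 to 11.13 in stem cells and 4.73 to 5.76 in total testicular cells. The log2 of the summed macrophage level was 11.48 to 13.36 in stem cells and 8.15 to 8.74 in total testicular cells, and Cd163 was below background on all 3 total testicular cell arrays, at 1.67 to 1.95. All 6 measured Leydig cell markers were higher at an unadjusted p under 0.05, beside 11.8% of all genes, and 0 rose after adjustment, against 1.63%. Their summed level was 10.15 to 11.94 in stem cells and 9.15 to 10.01 in total testicular cells. By the times in their headers the arrays fell into 3 fluidics rounds, and 2 of them held both groups. These were round 1, with stem cell replicate 1 and total testicular cell replicates 1 and 3, and round 3, with replicate 2 of each.

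None of the 10 regulators passed the test between the groups, and the differences that came closest were lower values in stem cells for Nr6a1, Rfx1 and Tcfl5. By limma with Benjamini-Hochberg adjustment over all probe sets at 0.05, 0 of the 16 member probe sets rose, against 1.4% of all probe sets, and 0 fell, against 0.15% (1.55% in either direction). At an unadjusted p under 0.05, 3 of 16 were lower, beside 12.1% of all probe sets, and 0 were higher, beside 11.4%. The groups did not overlap for the same 3 probe sets, beside 17.5% of all probe sets with lower, non-overlapping stem cell values. Negative differences were found for 12 of 16, beside 55% of all probe sets. The median difference was −0.25 over the 16 probe sets and −0.03 over all probe sets. On the brightest probe set of each gene, all 10 differences were negative, beside 57% of all genes (7069 of 12393). They stayed negative after quantile normalization, beside 7400 of all genes, and after median centring, beside 8777. Median centring itself moved the median difference of all probe sets by −0.11. With the fluidics module of the array run as a block 8 of 10 were negative, beside 7021 of all genes. Creb1 and Tbpl1 turned to 0.04 each. In these bulk samples fewer cells of a type and less RNA per cell cannot be told apart. The markers of macrophages and Leydig cells that moved with the groups are given here as values, and their part in the differences of the regulators was not tested.

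**Figure D1:**
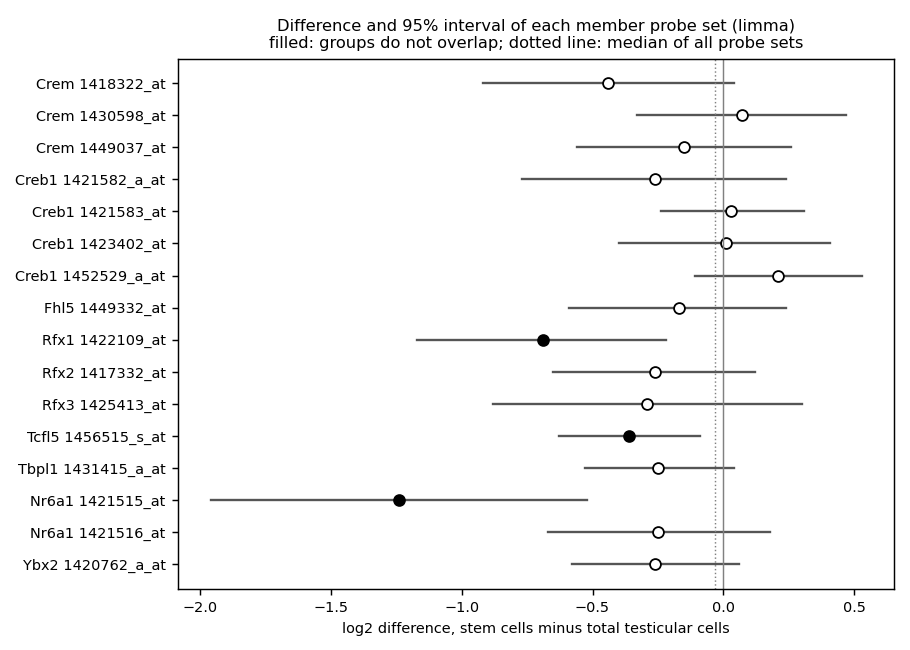
Log2 difference, stem cells minus total testicular cells, with its 95% interval from limma for each of the 16 probe sets. Points are filled where the 3 stem cell values lie outside the range of the 3 total testicular cell values, which holds for Rfx1, Tcfl5 and Nr6a1 1421515_at, and the dotted line at −0.03 is the median of all probe sets.

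Crem was measured by 3 probe sets, and its brightest one was lower in stem cells without passing the test. Probe set 1418322_at read 4.37, 4.72 and 4.27 on the stem cell arrays, against 4.68, 5.23 and 4.78 on the total testicular cell arrays. Replicate 2 was the highest array of each group, and the groups overlapped by a narrow margin. The means were 4.45 ± 0.24 in stem cells and 4.90 ± 0.29 in total testicular cells (SD, n = 3 each), a log2 difference of −0.44 ± 0.21 (SE, 95% interval −0.92 to 0.04, limma adjusted p = 0.245). Within rounds 1 and 3 it was −0.36 and −0.50. It shrank to −0.28 without total testicular cell replicate 2 and to −0.06 with the fluidics module as a block, which rests on stem cell replicate 2 against total testicular cell replicate 3 (adjusted p = 0.944).

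The other Crem probe sets were dimmer. Probe set 1449037_at read 3.08, 3.40 and 3.00 in stem cells, against 3.35, 3.48 and 3.12 in total testicular cells, a difference of −0.15 (95% interval −0.56 to 0.26, limma adjusted p = 0.645). Here too replicate 2 was the highest array in both groups. Probe set 1430598_at read 1.51, 2.22 and 1.66 in stem cells, against 1.58, 1.66 and 1.94 in total testicular cells, and lay above background on 1 of 6 arrays, so that a change in what it reports could not be seen.

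The probe sets of Crem were compared within each array by taking 1 probe set minus the mean of the other 2. For 1418322_at this gap was 2.07, 1.91 and 1.94 in stem cells, against 2.22, 2.66 and 2.25 in total testicular cells. The gaps of the groups did not overlap, and the gap was smaller by 0.40 in stem cells (difference −0.40 ± 0.19 SE). Of the 2 probe sets it was set against, 1430598_at was mostly below background, and against 1449037_at alone the gap differed by −0.29 (limma adjusted p = 0.408). Against the mean of both, without total testicular cell replicate 2, the gap differed by −0.26. The difference of −0.40 did not pass the test over all 12943 probe sets that share a gene with another (limma adjusted p = 0.286, unadjusted p = 0.0615). For it the exact permutation test gave p = 0.1, the smallest that 3 against 3 arrays allow. Of those probe sets 0.726% passed after adjustment in either direction, and 0 of the 9 belonging to Crem, Creb1 and Nr6a1 did. For 1449037_at the gap differed by 0.03 (adjusted p = 0.952), and for 1430598_at, mostly below background, by 0.37 (adjusted p = 0.325). Which Crem forms each probe set reads was not analysed here.

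Creb1, the widely expressed relative of Crem, was near background on all 4 of its probe sets. The brightest, 1421582_a_at, read 3.00, 3.38 and 2.56 in stem cells, against 3.36, 3.03 and 3.33 in total testicular cells. Stem cell replicate 2 was above every other array and stem cell replicate 3 below every other, so the groups overlapped throughout (difference −0.26, 95% interval −0.77 to 0.24, limma adjusted p = 0.506). The remaining Creb1 probe sets had differences of 0.03, 0.01 and 0.21, and 1421583_at was above background on 0 of 6 arrays. For a transcript this dim a change could be missed.

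Fhl5, the spermatid coactivator of CREM, was strongly detected in both groups. Its probe set read 9.58, 9.67 and 10.18 in stem cells, against 9.96, 9.75 and 10.23 in total testicular cells. Replicate 3 was the highest array in both groups, and the spread of 0.60 within the stem cell arrays exceeded the difference of −0.17 between the groups (95% interval −0.59 to 0.24, limma adjusted p = 0.605). Leaving out 1 array moved it between −0.36, without stem cell replicate 3, and −0.05, without total testicular cell replicate 3.

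**Figure D2:**
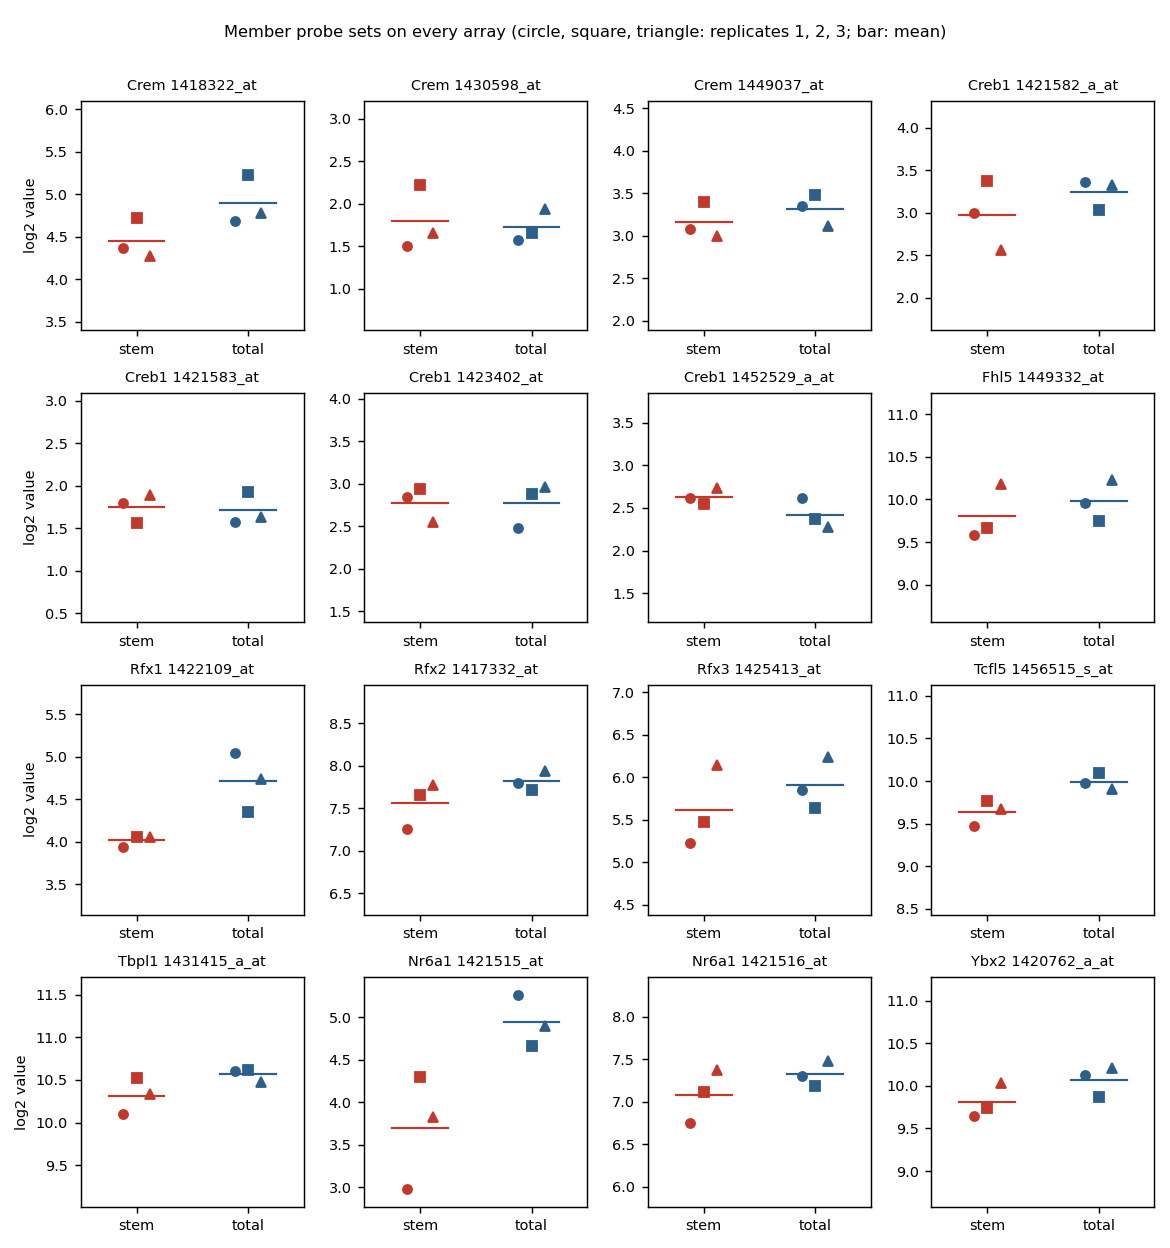
Deposited log2 value of each of the 16 probe sets on every array, stem cells left and total testicular cells right, with circles, squares and triangles for replicates 1, 2 and 3 and a bar at the mean. All panels span the same number of log2 units around their own level. Rfx1 and Nr6a1 1421515_at show the widest gaps, with differences of −0.69 and −1.24.

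Among the RFX factors, Rfx1 was the furthest apart between the groups. It read 3.94, 4.06 and 4.06 in stem cells, against 5.05, 4.35 and 4.74 in total testicular cells. All 3 stem cell arrays lay below all 3 total testicular cell arrays and close together, while the total testicular cell arrays spread over 0.70. Rfx1 averaged 4.02 ± 0.07 in stem cells and 4.71 ± 0.35 in total testicular cells (SD, n = 3 each), a difference of −0.69 ± 0.21 (SE, 95% interval −1.17 to −0.22), or 61.9% of the total testicular cell level. It did not pass the test over all probe sets (limma adjusted p = 0.109, unadjusted p = 0.00905). The difference was −0.65 without stem cell replicate 1. Among all omissions of 1 array it ranged from −0.87, without total testicular cell replicate 2, to −0.52, without total testicular cell replicate 1. Within rounds 1 and 3 it was −0.95 and −0.29.

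Rfx2, which mouse spermatids need for their maturation, read 7.26, 7.65 and 7.77 in stem cells, against 7.80, 7.72 and 7.94 in total testicular cells. The low value of stem cell replicate 1 carried most of the difference of −0.26 (95% interval −0.65 to 0.12, limma adjusted p = 0.375), which was −0.11 without that array. Rfx3, a factor of ciliated cells, read 5.23, 5.47 and 6.14 in stem cells, against 5.85, 5.64 and 6.24 in total testicular cells. Replicate 3 was again the highest array on each side, and the stem cell arrays spread over 0.91, more than the difference of −0.29 (95% interval −0.88 to 0.30, limma adjusted p = 0.534). It was −0.55 without stem cell replicate 3, −0.10 without stem cell replicate 1 and −0.76 with the module as a block. The differences of Rfx1, Rfx2 and Rfx3 from one another were not tested.

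Tcfl5, a helix-loop-helix factor of meiotic and later male germ cells, was slightly lower in stem cells on every array. It read 9.47, 9.77 and 9.67 in stem cells, against 9.98, 10.09 and 9.91 in total testicular cells. The groups did not overlap, and the means were 9.64 ± 0.15 in stem cells and 9.99 ± 0.09 in total testicular cells (SD, n = 3 each). The difference of −0.36 ± 0.12 (SE, 95% interval −0.63 to −0.09) left 78.1% of the total testicular cell level and did not pass (limma adjusted p = 0.131, unadjusted p = 0.0153). The value was −0.47 within round 1, −0.32 within round 3 and −0.14 with the module as a block. The suffix of its probe set, 1456515_s_at, marks probes that can match transcripts of more than 1 gene.

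Tbpl1, the TBP-like factor, read 10.10, 10.52 and 10.33 in stem cells, against 10.60, 10.62 and 10.48 in total testicular cells. Stem cell replicates 1 and 3 were below all total testicular cell arrays and stem cell replicate 2 was not. The difference was −0.25 (95% interval −0.53 to 0.04, limma adjusted p = 0.268). It was −0.14 without stem cell replicate 1, −0.35 without stem cell replicate 2 and 0.04 with the module as a block.

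Nr6a1, the nuclear receptor also called GCNF, gave the largest difference of the 10 genes on one of its probe sets and a small one on the other. Probe set 1421515_at read 2.98, 4.29 and 3.83 in stem cells, against 5.26, 4.66 and 4.89 in total testicular cells. All stem cell values lay below all total testicular cell values, and stem cell replicate 1 was far below the rest. The means were 3.70 ± 0.66 in stem cells and 4.94 ± 0.30 in total testicular cells (SD, n = 3 each), a difference of −1.24 ± 0.32 (SE, 95% interval −1.96 to −0.52), or 42.3% of the total testicular cell level. It did not pass over all probe sets (limma adjusted p = 0.0821, unadjusted p = 0.00361). The difference was −0.88 without stem cell replicate 1 (adjusted p = 0.1), and −1.54 without stem cell replicate 2, where it passed (adjusted p = 0.0365). It was −2.10 within round 1, −0.37 within round 3 and −0.60 with the module as a block (adjusted p = 0.473).

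The brighter Nr6a1 probe set, 1421516_at, read 6.75, 7.11 and 7.37 in stem cells, against 7.30, 7.18 and 7.48 in total testicular cells. The groups overlapped and the difference was −0.25 (95% interval −0.67 to 0.18, limma adjusted p = 0.455), between −0.40 without stem cell replicate 3 and −0.08 without stem cell replicate 1. Within each array the gap of 1421515_at below 1421516_at was −3.76, −2.82 and −3.54 in stem cells, against −2.04, −2.52 and −2.59 in total testicular cells. The gaps did not overlap, and they differed by −0.99 ± 0.27 (SE), which missed the threshold over all such probe sets (limma adjusted p = 0.117 and, for the same contrast at the intensity of the brighter probe set, 0.0906). The unadjusted p was 0.0039, where 19% of all such probe sets lay under 0.05. Without stem cell replicate 2 the gap differed by −1.27 and passed (adjusted p = 0.0283), and with the module as a block it differed by −0.23 (adjusted p = 0.829).

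**Figure D3:**
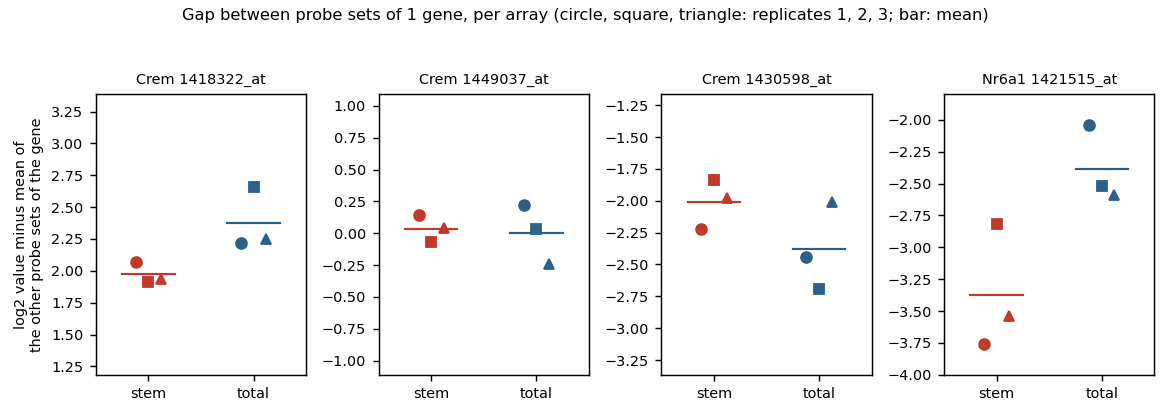
Log2 value of a probe set minus the mean of the other probe sets of its gene on every array, for the 3 Crem probe sets and for Nr6a1 1421515_at, stem cells left and total testicular cells right. Circles, squares and triangles are replicates 1, 2 and 3 and the bar is the mean. The groups are apart for Crem 1418322_at, with mean gaps of 1.98 in stem cells and 2.38 in total testicular cells, and for Nr6a1, with −3.38 in stem cells and −2.38 in total testicular cells.

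Ybx2, the germ cell Y-box protein, read 9.65, 9.74 and 10.04 in stem cells, against 10.13, 9.87 and 10.21 in total testicular cells. Replicate 3 was the highest array in both groups, and the stem cell value of replicate 3 lay inside the range of the total testicular cells. The difference was −0.26 (95% interval −0.58 to 0.06, limma adjusted p = 0.302), and −0.47 with the module as a block.

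Promoter windows of the 3 genes with non-overlapping groups are shown because they are the ones with the clearest separation, and for Nr6a1 because its probe sets differed and the table holds 2 start sites for it. Crem was left out of this search, while the shares over all RefSeq windows were counted with no window left out. The 12 windows of the other 9 genes come from RefSeq (mouse, GRCm38.p6), each from 250 bases before to 50 bases after an annotated start. They are written 5′ to 3′ on the strand of the gene, and the first base of the transcript counts as position 1. Capitals mark TGACG, the core of the cAMP response element, or the full element TGACGTCA. The X-box arm GTTGCC was searched as well, and all motifs were searched on both strands, with every full element counted under its core too.
Rfx1, chr8:84066586-84066835, plus strand, positions −250 to −1: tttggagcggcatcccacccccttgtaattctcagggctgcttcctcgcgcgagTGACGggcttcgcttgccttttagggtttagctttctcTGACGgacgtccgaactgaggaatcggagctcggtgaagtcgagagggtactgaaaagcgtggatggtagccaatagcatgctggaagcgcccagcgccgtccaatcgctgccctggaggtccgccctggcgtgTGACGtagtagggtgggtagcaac
Tcfl5, chr2:180642692-180642941, minus strand, positions −250 to −1: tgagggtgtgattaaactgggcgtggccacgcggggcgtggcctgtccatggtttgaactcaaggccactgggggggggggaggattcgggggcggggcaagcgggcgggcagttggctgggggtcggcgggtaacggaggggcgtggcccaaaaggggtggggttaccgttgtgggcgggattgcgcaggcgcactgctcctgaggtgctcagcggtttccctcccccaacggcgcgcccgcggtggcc
Nr6a1 upstream start, chr2:38926412-38926441, minus strand, positions 21 to 50: cgtggcagcggcgcgTGACGTCAgaggagg
Nr6a1 downstream start, chr2:38784516-38784765, minus strand, positions −250 to −1: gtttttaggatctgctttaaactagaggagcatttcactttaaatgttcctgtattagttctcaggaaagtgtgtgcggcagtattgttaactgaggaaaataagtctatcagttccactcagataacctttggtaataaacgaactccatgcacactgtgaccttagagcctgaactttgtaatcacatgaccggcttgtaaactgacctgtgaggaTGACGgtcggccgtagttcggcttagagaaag
The Rfx1 stretch holds TGACG at 3 places, starting at −196, −158 and −24, and the X-box arm follows at positions 2 to 7, just past the printed bases. The Tcfl5 stretch holds neither motif. The upstream start of Nr6a1 has the full element at positions 36 to 43, and its downstream start has TGACG at −32. Over all windows of the 9 genes, TGACG was found in 4 of 12 (Nr6a1 at both starts, Rfx1 and Rfx2), where 20.8% of 32851 RefSeq windows hold it. The full element was in 1 of 12, against 1.79% of all windows, and GTTGCC in 4 of 12 (Rfx1, Rfx2, Rfx3 and Ybx2), against 12.5%. These matches describe letters only.

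The member probe sets varied over the arrays in different ways. Fhl5, Rfx2, Rfx3, Ybx2 and Nr6a1 1421516_at had 1 order of arrays in common, with replicate 3 highest, then 2, then 1 among stem cells and replicate 3, then 1, then 2 among total testicular cells. That order was found in 6.5% of all probe sets and in 8 of 13 spermatid markers, but in 1 of 11 spermatocyte markers. Taken against the average of the 3 total testicular cell arrays, the median spermatid marker stood at −0.41, −0.32 and 0.08 on stem cell arrays 1, 2 and 3, and Fhl5 stood at −0.40, −0.32 and 0.20. The distance to that profile (root mean square over 6 arrays, log2) was 0.0449 for Ybx2, 0.0675 for Fhl5, 0.0906 for Nr6a1 1421516_at, 0.115 for Rfx2 and 0.157 for Rfx3. Their distances to the median profile of spermatocyte markers were 0.145, 0.201, 0.144, 0.116 and 0.289 in the same order, so Rfx2 was as close to either.

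Tcfl5 and Tbpl1 shared another order, with replicate 2 highest in both groups, which 4.11% of all probe sets and 0 of 13 spermatid markers had. The 2 Crem probe sets above background also had replicate 2 highest on each side. Their distance from the spermatid profile was larger, at 0.403 for Crem 1418322_at, 0.322 for Crem 1449037_at, 0.239 for Tcfl5 and 0.228 for Tbpl1. All 4 lay closer to the spermatocyte profile, at 0.299, 0.17, 0.15 and 0.0947 in that order. These patterns were noticed in the same values, rest on 3 arrays a group and were not tested.

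**Figure D4:**
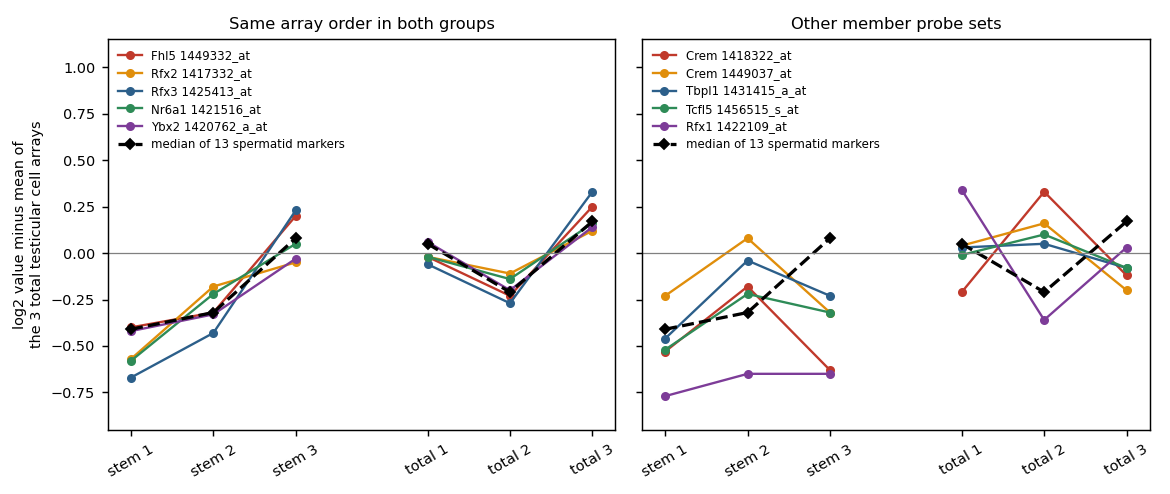
Log2 value of member probe sets on each array minus the average over total testicular cells, with the median of 13 spermatid markers dashed; lines only help to follow a probe set. On the left, 5 probe sets share 1 order of arrays, and they lie between 0.0449 (Ybx2) and 0.157 (Rfx3) from the dashed profile. On the right, Crem 1418322_at lies 0.403 from it, Tcfl5 0.239 and Tbpl1 0.228.

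The named genes most alike over the 6 arrays, each centred on its own mean, were Sugp2, Taf1d and Arhgap5 for Crem 1418322_at, at root mean square differences of 0.0576, 0.067 and 0.0738. For Ybx2 they were Mettl22, Akap4 and Pcmt1, at 0.0247, 0.0323 and 0.0353. Akap4, a gene of the sperm tail sheath, is in the lists of spermatid markers and of CREM-dependent genes. The spread of the probe sets themselves around their means was 0.309 for Crem and 0.202 for Ybx2.

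The pathways around the 10 genes were described from 7 lists, of which 61 of 83 genes were measured, each by its brightest probe set. After adjustment 0 of 61 rose, against 1.63% of all genes, and 0 fell, against 0.137%. At an unadjusted p under 0.05, 15 were lower, beside 13.1% of all genes, and 2 were higher, beside 11.8%. The median difference of all genes was −0.05.

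Among 16 measured CREB family members, coactivators and cofactors of CREM, 3 had lower and 2 had higher values with an unadjusted p below 0.05. Beside them stand 13.1% of all genes lower and 11.8% higher. The median difference was −0.11. Camk4, a calcium-dependent kinase that can phosphorylate CREM, read 5.64, 6.24 and 6.67 in stem cells, against 6.85, 6.48 and 7.20 in total testicular cells (difference −0.66, limma adjusted p = 0.192, its other probe sets reaching −0.01). Atf2, a related leucine zipper factor, differed by −0.47 (limma adjusted p = 0.174, with probe sets between −0.50 and −0.11). Creb3 differed by 0.43 (limma adjusted p = 0.167, with probe sets between 0.04 and 0.43). All 4 measured RFX relatives and partners had negative differences, beside 57% of all genes, with a median of −0.50. Rfx5, a factor of MHC class II promoters, read 3.70, 4.14 and 3.91 in stem cells, against 4.36, 4.51 and 4.51 in total testicular cells (difference −0.54, limma adjusted p = 0.136). Rfxank, its partner, differed by −0.51 (limma adjusted p = 0.178, with probe sets between −0.51 and −0.16). Foxj1, a regulator of motile cilia, differed by −0.49 (limma adjusted p = 0.229).

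In the list of TBP, TFIIA and TAF subunits, 2 of 5 measured genes were lower at an unadjusted p under 0.05, beside 13.1% of all genes. Gtf2a1, the large subunit of the general factor TFIIA, read 3.47, 4.16 and 3.73 in stem cells, against 4.89, 4.68 and 4.91 in total testicular cells. The groups did not overlap, and the difference of −1.04 narrowly missed the threshold (limma adjusted p = 0.0513), while its other probe sets reached −0.05. Leaving out stem cell replicate 2 or 3 took it past the threshold, with −1.22 (adjusted p = 0.0243) and −1.01 (adjusted p = 0.0403). Gtf2a1l, the germ cell form of that subunit, differed by −0.35 (adjusted p = 0.195) and Taf7 by −0.40 (adjusted p = 0.269). The list as a whole had a median of −0.35.

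Of 9 other measured regulators of spermatocytes and spermatids, 3 were lower at an unadjusted p under 0.05, beside 13.1% of all genes. The median of this list was −0.36. The 3 were the orphan nuclear receptor gene Nr2c1 (−0.70, adjusted p = 0.129, its other probe set at −0.04), Sox5 and Mybl1. Sox5 differed by −0.58 (adjusted p = 0.162, with probe sets between −0.76 and 0.30). Mybl1, a meiotic activator, differed by −0.53 (adjusted p = 0.198). It was near background, at 1.97 to 2.83 in stem cells and 2.62 to 3.09 in total testicular cells. Among 10 Y-box and germ cell mRNA-binding genes 3 were lower at that p, beside 13.1% of all genes, with a median of −0.25. Ddx25, a testis RNA helicase, differed by −0.40 (adjusted p = 0.13), Cpeb1, a translation regulator, by −0.35 (adjusted p = 0.15) and Khdrbs3 by −0.57 (adjusted p = 0.175), all by limma. Cpeb1 was near background too, at 2.14 to 2.38 in stem cells and 2.58 to 2.71 in total testicular cells.

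Genes downstream of CREM and RFX came next. Of 11 measured spermatid genes that depend on CREM in mouse, 0 were past an unadjusted p of 0.05 and the median difference was −0.09. Tnp2, a transition protein gene, read 12.20, 12.24 and 12.44 in stem cells, against 12.59, 12.30 and 12.72 in total testicular cells (difference −0.24, limma adjusted p = 0.25). Tnp1 differed by −0.13 (adjusted p = 0.399) and Acr, the acrosomal protease, by −0.17 (adjusted p = 0.466). The levels of Tnp1 and Tnp2 were close to 13.2, the highest value on any array. Of 6 measured cilium genes reported as RFX targets, all differences were negative, beside 57% of all genes, with a median of −0.29. Dnah5, above background on 4 of 6 arrays, and Dnah11 differed by only −0.06 and −0.01. An unadjusted p below 0.05 was reached by 2, both lower, beside 13.1% of all genes. They were Rsph1, a radial spoke gene (−0.45, adjusted p = 0.151), and Ift122, of intraflagellar transport (−0.53, adjusted p = 0.159), with Ift88 next (−0.36, adjusted p = 0.261). After quantile normalization the RFX relatives and the cilium genes kept only negative differences, and the CREM-dependent genes had 6 negative of 11, against 9 on the deposited scale. With array weights 4 of the 6 cilium genes were negative. With the module as a block, negative differences numbered 11 of 11 for the CREM-dependent genes (median −0.51), 3 of 6 for the cilium genes (median −0.04) and 3 of 4 for the RFX relatives (median −0.24). With the round as a block all 11 CREM-dependent genes were negative (median −0.17). Of all 12393 genes, 7400 were negative after quantile normalization and 7112 with array weights. The count was 7021 with the module and 7504 with the round as a block.

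**Figure D5:**
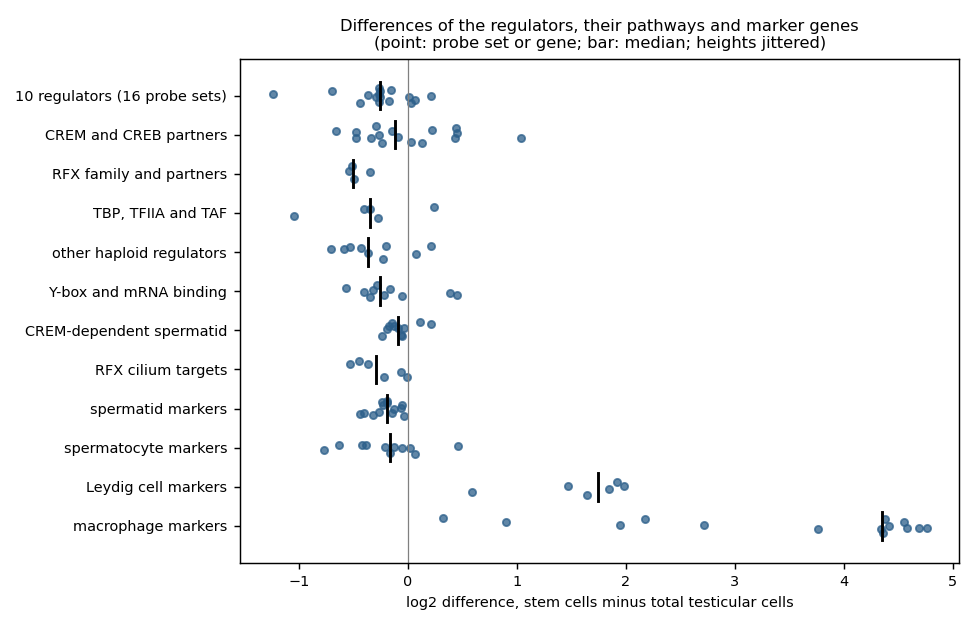
Log2 difference, stem cells minus total testicular cells, for the 16 member probe sets, for the genes of 7 pathway lists and for 4 lists of cell type markers, with a bar at each median. The regulators have a median of −0.25 and the pathway lists lie between −0.50 and −0.09, beside −0.19 for spermatid markers, 1.74 for Leydig cell markers and 4.35 for macrophage markers.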

How the data were processed

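The authors deposited probe set summaries for 6 arrays, on a log2 scale as their range of 1.2 to 13.2 shows. Per the submitters' processing notes MAS5 and RMA were used, with no version or role; background correction and normalization are not given in the sources used here. Groups and replicate numbers came from the titles. Per the file headers, all arrays came from 1 chip lot and were read on 1 scanner within 1 day. The headers name no rounds on the fluidics station. Rounds were inferred from the hybridization times in them. A start more than 15 minutes after the one before opened a new round, which gave 3. Round 1 held stem cell replicate 1 with total testicular cell replicates 1 and 3, round 3 held both replicates 2, and round 2 held stem cell replicate 3 alone.

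The log2 values were used as deposited. Of 22690 probe sets, 64 controls were left out. The annotation gave 1 gene for 20380 of the others, several for 691 and none for 1555, and only the first kind was named. The groups were compared with limma 3.58.1 in R 4.3.3 (two-sided, prior variance following intensity, residual df 4, prior df 5.21). Every difference is the stem cell mean minus the total testicular cell mean. Probe sets of 1 gene were compared by fitting the same model to each probe set minus the mean of the gene's others. The exact permutation test over arrays cannot go below p = 0.1. The number of arrays limits the precision.

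Named genes are all probe sets of the 10 members, the 3 lowest p and any passing gene of each pathway list, 3 nearest genes for Crem and Ybx2, and the markers Zbtb16, Gfra1, Sycp3, Prm1, Csf1r, Cyp17a1 and Sox9. Gfra1 differed by −0.17, Sycp3 by 0.02, Sox9 by −0.01 and Cyp17a1 by 1.92, with 0 of these passing. The members and lists were chosen with earlier results of these data known. Atf3, Itga6, Stra8, Id4, Uchl1, Cd163, Dnah5 and Dnah11 were chosen after their values were seen. Markers of differentiating spermatogonia (median difference 0.16, 3 measured), Sertoli cells (0.27, 11), myoid cells (0.10, 6), endothelium (0.04, 6), lymphocytes (0.08, 6) and erythroid cells (−0.12, 3) were measured as well. Of these, 1 Sertoli and 1 lymphocyte gene rose after adjustment, against 1.63% of all genes. The spermatocyte markers had a median of −0.16 and those of undifferentiated spermatogonia −0.10.

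The labels do not say that same-numbered replicates share a source, so the numbers were not taken as pairs. Their deviations from the group means correlated at −0.0121, 0.0119 and 0.297 for replicates 1, 2 and 3, which does not settle whether they were paired. The fits were tested on simulated data with known changes. Alternatives were median centring, quantile normalization, leaving out dim probe sets (not above background on at least 3 arrays), a block for the replicate number or for the fluidics round, a constant prior variance, array weights, robust moderation, omission of each array in turn, limma's diffSplice and the lowest-p probe set of a gene. The fluidics module as a block was added after seeing the data. A pseudocount did not apply.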

Additional observations from a re-analysis of the deposited data

How the results depend on the processing

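No member passed in most alternatives. The exception was Nr6a1 1421515_at, which passed with array weights (difference −1.17, adjusted p = 0.0463) and without stem cell replicate 2 (−1.54, adjusted p = 0.0365), so that 1 member probe set passed there. Leaving out 1 array gave 0 to 1 member probe sets past the adjusted threshold, 1 to 6 lower at an unadjusted p under 0.05, 0 to 6 pathway genes past the adjusted threshold and 3 to 24 lower at the unadjusted p. Lower at that p were 6 member probe sets with median centring, 5 with the fluidics round as a block and 5 with the replicate block. Over all 22626 probe sets, 4644 were lower at that p with median centring, 3333 with the round and 2864 with the replicate block. That number was 2748 in the main fit and 1305 to 3777 without 1 array. For the pathway lists the count was 30 with median centring and 23 with the round as a block. Pathway genes past the adjusted threshold numbered 1 with median centring, the dim filter, array weights (Gtf2a1 in each) and the round as a block (Atf3, 1.64), and 2 with the replicate block (Gtf2a1 and Rsph1). Median centring moved the median difference of all probe sets by −0.11, so the differences with it are read relative to that shift.

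Over all probe sets, 316 rose and 34 fell. The counts were 1065 and 196 with the replicate block, which changed no member's call, 1200 and 84 with the round as a block, 853 and 148 with array weights, 119 and 6 without the intensity trend, and 363 and 91 with median centring. With the module as a block, which rests on stem cell replicate 2 against total testicular cell replicate 3, limma called 0 and 0, with 1976 higher and 1561 lower at an unadjusted p under 0.05. Leaving out 1 array gave 36 to 1365 rises and 0 to 943 falls: 526 and 41, 679 and 943, and 1365 and 158 without stem cell replicates 1, 2 and 3, and 36 and 0, 64 and 3, and 49 and 2 without total testicular cell replicates 1, 2 and 3. Of probe sets compared within a gene, 94 passed, against 246 with the replicate block, 470 with the round and 350 with the module as a block, 292 with array weights, 56 without the trend, 45 with diffSplice and 16 to 698 without 1 array. Member probe sets among them numbered 1 with array weights and 0 to 2 without 1 array, the 2 being those of Nr6a1 without stem cell replicate 2.

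Several member differences changed sign, and 0 of these passed under any setting. With quantile normalization Creb1 1423402_at gave −0.07. With median centring Creb1 1421583_at gave −0.08, Creb1 1423402_at −0.11 and Crem 1430598_at −0.04. With the round as a block Creb1 1421583_at gave −0.05, and with the module as a block −0.07, beside −0.02 for Creb1 1423402_at, 0.04 for Creb1 1421582_a_at, 0.04 for Tbpl1 and 0.28 for Crem 1449037_at. Without 1 array, Creb1 1421583_at ranged from −0.04 to 0.14, Creb1 1423402_at from −0.14 to 0.12 and Crem 1430598_at from −0.14 to 0.21. In the comparison within genes, Crem 1449037_at gave −0.04 with quantile normalization and −0.02 with array weights, Creb1 1423402_at −0.00 with quantile normalization and −0.11 with the module, and Creb1 1421583_at −0.12 with the round and −0.16 with the module. Without 1 array these 3 ranged from −0.09 to 0.14, from −0.16 to 0.13 and from −0.11 to 0.22. The cause of these changes was not tested.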
